A study of Mus musculus with 4 samples.

Results

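The genes described here encode the glucose transporters, the enzymes of glycolysis with their allosteric regulators, and the enzymes of the pentose phosphate pathway. They were chosen by symbol from a list of 33 genes, 25 of glycolysis and 8 of the pentose phosphate branch, and the deposited tables held all 33 among 17559 genes. Expression was measured by RNA-seq in mouse CD8+ T cells that carry OT-I, a transgenic T cell receptor for an ovalbumin peptide, on the C57BL/6 background, from tissue labelled LN. One group of 2 libraries had been given 1 mM NaBu for 12 h, and the other 2 libraries were the controls. NaBu commonly stands for sodium butyrate, the salt of a fatty acid made by gut bacteria and a known inhibitor of histone deacetylases. Before treatment, the cells of both groups had been enriched to over 95% by negative magnetic selection, stimulated for 2 d on plates coated with anti-CD3 at 1 µg/ml and anti-CD28 at 2 µg/ml, then washed and kept for 2 d off the antibodies, with IL-2 at 10 ng/ml in both steps. The comparison asks how NaBu changed the transcripts of activated CD8+ T cells.

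Expected counts summed to between 19857701 and 19859649 in the NaBu libraries and between 20344399 and 20548571 in the controls, and the 33 genes took 3.40% and 3.40% of them in NaBu, against 3.55% and 3.05% in control 1 and control 2. No label says that the 2 libraries of a group are separate cultures or animals, so the spread behind each p-value is that between libraries and may be technical. In bulk RNA, fewer cells of a type and less RNA per cell cannot be told apart. Over all 12943 genes tested, 34.5% were higher and 34.1% lower, the background for each count of markers that follows. Of 8 CD8 T cell markers, all were tested, 1 was higher and 6 were lower. *Cd8a* was lower, with 93.9 and 97.0 FPKM in NaBu, against 118 and 116 FPKM in control. *Cd3g* was the higher one, with 557 and 554.5 FPKM in NaBu, against 407 and 375 FPKM in control, and *Thy1* did not pass. FPKM counts fragments relative to transcript length and library total. Of 10 myeloid and dendritic cell markers, 4 of the 5 tested were higher in NaBu and none was lower. The higher ones were *Itgam*, *Mpeg1*, *Itgax* and *Cd68*, and *Fcgr3* did not pass. *Cd68* had 28.4 and 27.1 FPKM in NaBu, against 11.4 and 9.59 FPKM in control. *Itgam* had 4.83 and 3.79 FPKM in NaBu, against 0.45 and 0.45 FPKM in control. The summed myeloid level was 41.0 and 38.9 FPKM in NaBu, against 15.7 and 14.0 FPKM in control. *Lyz2* and *Csf1r* were listed at 0 in every library. The summed levels of the B cell markers were 2.62 and 1.96 FPKM in NaBu, against 5.73 and 4.07 FPKM in control, and those of the NK cell markers 4.94 and 5.57 FPKM, against 10.5 and 9.34 FPKM. Of the CD4 and regulatory T cell markers, 2 of the 3 tested were higher. Their sums were 27.0 and 27.2 FPKM in NaBu, against 21.1 and 19.4 FPKM in control. Most of that was *Zbtb7b*, with 26.1 and 26.3 FPKM in NaBu, against 20.8 and 19.2 FPKM in control. *Cd4* had only 0.66 and 0.65 FPKM in NaBu, against 0.02 and 0.03 FPKM in control, and *Foxp3* did not pass. The erythroid sums were 6.59 and 7.24 FPKM in NaBu, against 1.16 and 1.29 FPKM in control. The part of such cells in the results below was not tested.

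Glycolysis splits glucose into pyruvate, which lactate dehydrogenase can turn into lactate. The pentose phosphate pathway branches off at glucose 6-phosphate, makes NADPH in its oxidative arm and exchanges ribose and glycolytic sugars in its non-oxidative arm. T cells are known to raise both after activation, when they take up more glucose for growth and effector function. Several transcripts of the first steps of glycolysis were higher after NaBu, namely those of the transporter *Slc2a3*, hexokinase *Hk2*, the isomerase *Gpi1* and the 3 regulators *Pfkfb2*, *Pfkfb3* and *Pfkfb4*, while *Slc2a1*, *Hk1* and *Pfkp* did not pass and *Pfkl* was lower. Further down, *Tpi1*, *Eno1*, *Pkm* and *Ldha* were lower, *Eno2* and *Ldhb* were higher, and the abundant *Aldoa*, *Gapdh*, *Pgk1* and *Pgam1* did not pass. In the pentose phosphate branch *Tkt*, *Pgd* and *Rpia* fell, and *Taldo1* and *Tigar* rose. Of the 33 genes, all of which were tested, 13 rose and 10 fell (edgeR, quasi-likelihood F test, Benjamini-Hochberg adjusted p below 0.05). Over all 12943 genes tested, 68.6% were called, 34.5% higher and 34.1% lower, so the share of these genes called, 69.7%, lay near the background and is not a result about the pathway. The median log2 fold change was 0.13 over the 33 genes and 0.005 over all genes tested. The median size of the change without its sign was 0.59 over the 33 genes and 0.46 over all. Both NaBu libraries lay on one side of both controls in 23 of the 23 genes called, as they did in 99.9% of all genes called, measured in TMM-scaled CPM (TMM, trimmed mean of M-values, is the scaling used in the test, and CPM the count relative to the scaled library total). Out of all 33 genes, 6 were called higher and 3 lower with a change of 2-fold or more, against 14.9% and 8.11% of all genes tested. Of the 33 genes, 9 higher and 3 lower ones also passed a test against a change of 1.5-fold, which 17.1% and 12.1% of all genes passed in those directions.

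Hypoxia-inducible factors bind sites whose core can read ACGTG, and Myc binds sites that can read CACGTG. Both families are known activators of glycolytic genes, so the promoters were searched for these letters on both strands. Other forms of these sites were not searched, so a window without a match may still hold one. RefSeq windows on GRCm38.p6, from 250 bases before to 50 after each annotated start, were found for 32 of the 33 genes, and for *Slc2a3* none was used. ACGTG was present in at least 1 window of 14 of 24 glycolysis genes (58.3%), of 1 of 8 pentose phosphate genes (12.5%) and of 21.8% of the 27025 genes with a window. Counted by window, it was in 47.4% of 38 glycolysis windows, 11.1% of 9 pentose phosphate windows and 19.6% of all 32851 windows. CACGTG, which contains ACGTG on each strand and so adds 2 of its matches, was in a window of 4 of the 32 genes (12.5%) and of 8.1% of all genes with one. ACGTG was found for 5 of 12 genes that rose (41.7%), 3 of 10 that fell (30.0%) and 7 of 10 that did not pass (70.0%), a description of the letters and not of binding. Below are the windows of *Hk2*, the hexokinase gene that rose, at chr6:82774405-82774704 on the minus strand, of *Pfkl*, the phosphofructokinase gene that fell, at chr10:78009758-78010057 on the minus strand, and of *Ldha*, the window richest in these letters, at chr7:46845554-46845853 on the plus strand and the upstream one of 2 for that gene. Capitals mark ACGTG on either strand, with 2 matches in *Hk2*, 0 in *Pfkl* and 5 in *Ldha*, which holds CACGTG at 2 places.
Hk2: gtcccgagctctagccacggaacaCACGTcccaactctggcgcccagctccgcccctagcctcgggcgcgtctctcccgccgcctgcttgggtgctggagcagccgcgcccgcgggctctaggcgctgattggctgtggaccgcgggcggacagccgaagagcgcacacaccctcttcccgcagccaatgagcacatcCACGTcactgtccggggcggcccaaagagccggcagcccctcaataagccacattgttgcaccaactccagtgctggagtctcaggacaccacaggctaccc
Pfkl: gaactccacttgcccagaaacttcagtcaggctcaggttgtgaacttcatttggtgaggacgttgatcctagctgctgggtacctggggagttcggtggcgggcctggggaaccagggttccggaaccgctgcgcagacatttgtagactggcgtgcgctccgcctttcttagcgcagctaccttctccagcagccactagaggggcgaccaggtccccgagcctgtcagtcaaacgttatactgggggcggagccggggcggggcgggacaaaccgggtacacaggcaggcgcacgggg
Ldha: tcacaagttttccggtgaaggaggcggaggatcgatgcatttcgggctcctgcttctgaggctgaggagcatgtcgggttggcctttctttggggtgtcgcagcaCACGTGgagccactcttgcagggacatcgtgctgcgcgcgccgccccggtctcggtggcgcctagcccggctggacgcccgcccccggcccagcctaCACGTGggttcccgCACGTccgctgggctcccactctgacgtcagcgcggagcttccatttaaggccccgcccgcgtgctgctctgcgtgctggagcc

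**Figure D1:**
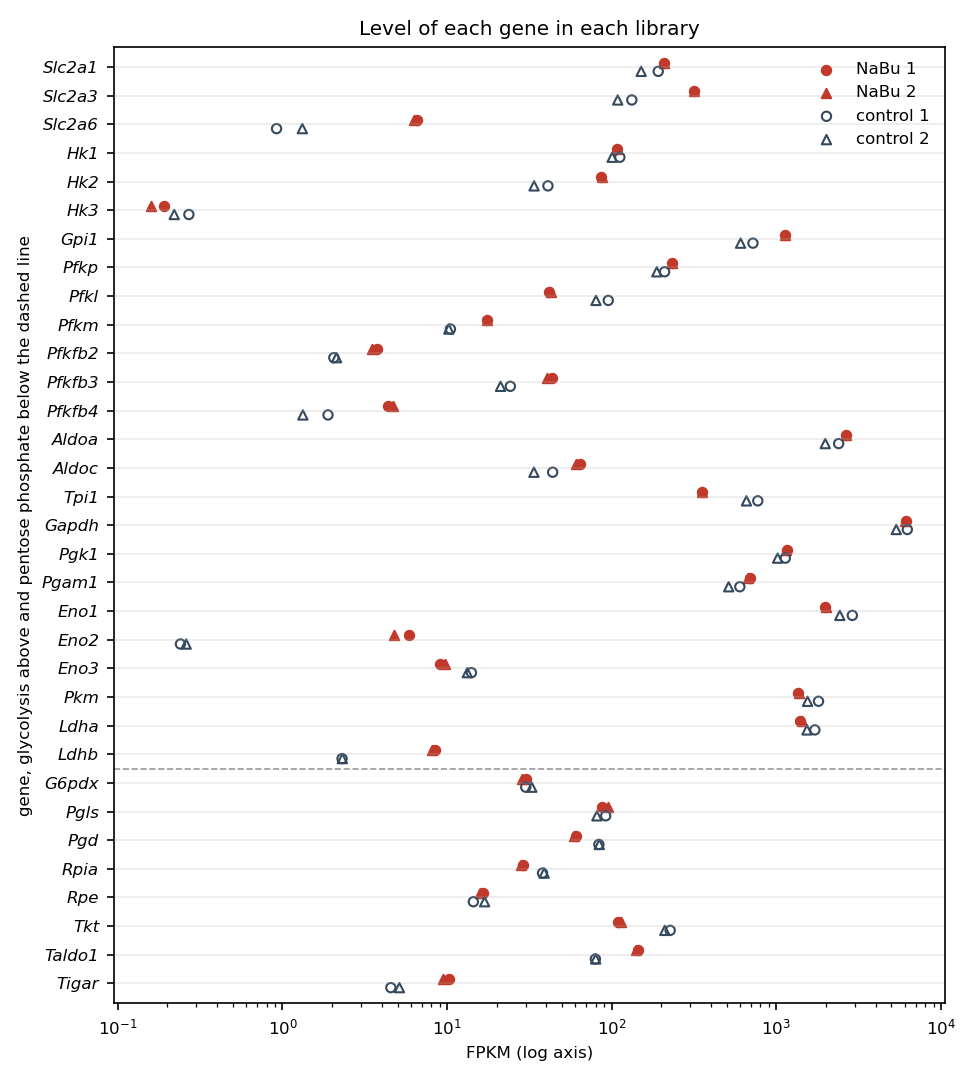
FPKM of the 33 genes (log axis) in each of the 2 NaBu libraries (filled red) and 2 control libraries (open), in pathway order with the pentose phosphate genes below the dashed line. *Gapdh* is highest in every library, and the control points of most glycolysis genes lie farther apart than the NaBu points.

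Of the 3 glucose transporter genes, 2 passed the test, both as higher. *Slc2a3* (gene 20527, chromosome 6, 122727809 to 122802363), encoding the high-affinity transporter GLUT3, had 317 and 315 FPKM in NaBu, against 132 and 109 FPKM in control. Both NaBu libraries were far above both controls, a 2.45-fold rise (log2 fold change 1.30 ± 0.09, SE; edgeR adjusted p = 4.3e-07). *Slc2a1*, encoding GLUT1, the main transporter of activated T cells, had 208 and 208 FPKM in NaBu, against 191 and 151 FPKM in control. The groups did not overlap, but the controls differed from each other by more than control 1 differed from NaBu, and *Slc2a1* did not pass (log2 fold change 0.19 ± 0.10, edgeR adjusted p = 0.109). Without control 1 it was called higher, with a log2 fold change of 0.36 (adjusted p = 0.000283, within a range of 0.000283 to 1.0 over the alternatives), and it was called in 5 of the 16 alternatives, among them library totals with 0.28. *Slc2a6*, encoding the transporter GLUT6, had 6.59 and 6.26 FPKM in NaBu, against 0.92 and 1.32 FPKM in control, and rose 5.35-fold at a low level (log2 fold change 2.42 ± 0.16, edgeR adjusted p = 4e-07).

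Hexokinases trap glucose as glucose 6-phosphate. *Hk2* (gene 15277, chromosome 6, 82725025 to 82774454), the inducible form, had 86.1 and 87.0 FPKM in NaBu, against 41.0 and 33.8 FPKM in control. It rose 2.17-fold, with both NaBu libraries above both controls (log2 fold change 1.12 ± 0.08, SE, edgeR adjusted p = 9.57e-07). *Hk1*, the widely expressed form, had 108 and 107 FPKM in NaBu, against 112 and 101 FPKM in control. The NaBu values lay between the controls and *Hk1* did not pass (log2 fold change -0.08 ± 0.07). Without control 2 it was called lower, with a log2 fold change of -0.16. *Hk3*, known from myeloid cells, stayed under 0.3 FPKM in each library.

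The next steps convert the trapped sugar and commit it to glycolysis. *Gpi1* (gene 14751, chromosome 7, 34201327 to 34230336), encoding the isomerase that makes fructose 6-phosphate, had 1133 and 1125 FPKM in NaBu, against 720.5 and 606 FPKM in control. It rose 1.59-fold with no overlap (log2 fold change 0.67 ± 0.09, edgeR adjusted p = 5.37e-05). The 3 phosphofructokinase genes, whose products form mixed tetramers at the committed step, went in different directions. *Pfkl* (gene 18641, chromosome 10, 77986947 to 78009807), the liver type, had 41.8 and 42.5 FPKM in NaBu, against 95.2 and 80.2 FPKM in control. It fell 2.23-fold, the steepest fall among the 33 genes (log2 fold change -1.15 ± 0.08, edgeR adjusted p = 5.06e-07). *Pfkm*, the muscle type, had 17.5 and 17.5 FPKM in NaBu, against 10.5 and 10.2 FPKM in control, and rose 1.58-fold with tight replicates. *Pfkp*, the platelet type and the most abundant, had 233 and 231 FPKM in NaBu, against 209 and 188 FPKM in control, and did not pass (log2 fold change 0.13 ± 0.07). It was called higher in 5 of the 16 alternatives, among them library totals (log2 fold change 0.22) and without control 1 (0.20).

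The Pfkfb genes encode 2-domain enzymes that make and remove fructose 2,6-bisphosphate, the strongest allosteric activator of phosphofructokinase. Of the family's 4 genes, *Pfkfb2*, *Pfkfb3* and *Pfkfb4* rose and *Pfkfb1*, which is not among the 33 genes, fell. *Pfkfb3*, the form with the highest kinase activity, had 43.6 and 40.4 FPKM in NaBu, against 24.2 and 21.1 FPKM in control. The groups were well apart, a 1.72-fold rise (log2 fold change 0.79 ± 0.08, edgeR adjusted p = 7.61e-06). *Pfkfb4* had 4.35 and 4.66 FPKM in NaBu, against 1.89 and 1.33 FPKM in control, and rose 2.62-fold. *Pfkfb2* had 3.77 and 3.50 FPKM in NaBu, against 2.05 and 2.13 FPKM in control, and rose 1.60-fold. Both were low in every library. *Pfkfb1*, the form best known from liver, had 0.60 and 0.75 FPKM in NaBu, against 3.21 and 3.04 FPKM in control, and fell 4.91-fold (log2 fold change -2.29 ± 0.21, edgeR adjusted p = 4.02e-06). *Tigar*, whose product lowers fructose 2,6-bisphosphate and so favours the pentose phosphate branch, had 10.2 and 9.41 FPKM in NaBu, against 4.55 and 5.13 FPKM in control. It rose as well, 1.89-fold with no overlap (log2 fold change 0.92 ± 0.09, edgeR adjusted p = 8.04e-06).

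Aldolase splits fructose 1,6-bisphosphate into 2 triose phosphates, and triosephosphate isomerase interconverts them. *Aldoa*, the main aldolase gene of these cells, had 2652 and 2665 FPKM in NaBu, against 2389 and 1980.2 FPKM in control. Both NaBu libraries were higher, but the controls lay farther from each other than control 1 from NaBu, and *Aldoa* did not pass (log2 fold change 0.19 ± 0.09, edgeR adjusted p = 0.0838). It was called higher in 7 of the 16 alternatives, among them DESeq2 (log2 fold change 0.19), limma-voom (0.20), library totals (0.29) and without control 1 (0.33). *Aldoc*, the form best known from brain, had 63.9 and 60.6 FPKM in NaBu, against 43.8 and 33.7 FPKM in control, and rose with a log2 fold change of 0.59 ± 0.10 (edgeR adjusted p = 0.0004). *Tpi1* (gene 21991, chromosome 6, 124810586 to 124814158) had 352 and 354 FPKM in NaBu, against 771 and 658 FPKM in control. It fell 2.16-fold, with each NaBu library well below both controls (log2 fold change -1.11 ± 0.08, edgeR adjusted p = 6.51e-07).

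The following 3 enzymes did not pass the test. *Gapdh*, encoding glyceraldehyde-3-phosphate dehydrogenase and often used as a reference gene, had 6131 and 6068 FPKM in NaBu, against 6239 and 5347 FPKM in control. Its NaBu values lay between the controls, and its log2 fold change was -0.02 ± 0.09 with TMM scaling and 0.08 on library totals. Without control 2 it was called lower (log2 fold change -0.13), and without control 1 its value was 0.09. *Pgk1*, encoding phosphoglycerate kinase, which yields the first ATP of the pathway, had 1157 and 1150 FPKM in NaBu, against 1133 and 1017 FPKM in control. On the TMM scale the groups overlapped, with a log2 fold change of 0.005 ± 0.07. *Pgam1*, encoding phosphoglycerate mutase, had 687 and 673 FPKM in NaBu, against 599 and 513 FPKM in control, and lay just outside the threshold (log2 fold change 0.19 ± 0.08, edgeR adjusted p = 0.0518). It was called higher in 9 of the 16 alternatives, among them DESeq2 (log2 fold change 0.19), library totals (0.29) and without control 1 (0.30).

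Transcripts from enolase to lactate dehydrogenase were lower for the abundant isozymes. *Eno1* (gene 13806, chromosome 4, 150236708 to 150248879), the enolase of most tissues, had 1961 and 2009.6 FPKM in NaBu, against 2892 and 2427 FPKM in control. It fell 1.43-fold with no overlap (log2 fold change -0.52 ± 0.09, edgeR adjusted p = 0.000455). *Pkm* (gene 18746, chromosome 9, 59656576 to 59679372), the pyruvate kinase gene, had 1352 and 1366 FPKM in NaBu, against 1803 and 1546 FPKM in control. Both NaBu libraries were lower, a 1.32-fold fall (log2 fold change -0.40 ± 0.09, edgeR adjusted p = 0.0018). The files give 1 value per gene, so the M1 and M2 splice forms of pyruvate kinase were not separated. *Ldha* (gene 16828, chromosome 7, 46842274 to 46855627), encoding the lactate dehydrogenase subunit that favours lactate, had 1400 and 1423 FPKM in NaBu, against 1712 and 1534 FPKM in control. It fell 1.23-fold, the groups being apart but close (log2 fold change -0.30 ± 0.08, edgeR adjusted p = 0.00511). Without NaBu 1 its value was -0.29 and without NaBu 2 it was -0.31, and in neither case did it pass (adjusted p = 0.0893 and 0.0719, within a range of 1.68e-05 to 1.0 over the alternatives). It also did not pass in the limma fits on FPKM.

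Among the minor isozymes of these steps, *Eno2* and *Ldhb* rose, while *Eno3* fell as *Eno1* did. *Eno2* (gene 13807, chromosome 6, 124760053 to 124769673), best known as the enolase of neurons, had 5.89 and 4.74 FPKM in NaBu, against 0.24 and 0.26 FPKM in control. Its expected counts were 313 and 261 in NaBu, against 13 and 14 in control, a 20.3-fold rise and the largest change among the 33 genes (log2 fold change 4.34 ± 0.20, edgeR adjusted p = 3.14e-08). On the log2(FPKM + 1) scale, where the added 1 exceeds its control level, the limma value was 2.33. *Ldhb*, encoding the subunit known from heart, had 8.47 and 8.09 FPKM in NaBu, against 2.30 and 2.31 FPKM in control, with counts of 220 and 211 against 62 and 63. It rose with a log2 fold change of 1.73 ± 0.14 (edgeR adjusted p = 1.5e-06). *Eno3*, the muscle form of enolase, fell instead, with 9.11 and 9.72 FPKM in NaBu, against 14.1 and 13.3 FPKM in control, and a log2 fold change of -0.63 ± 0.09.

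**Figure D2:**
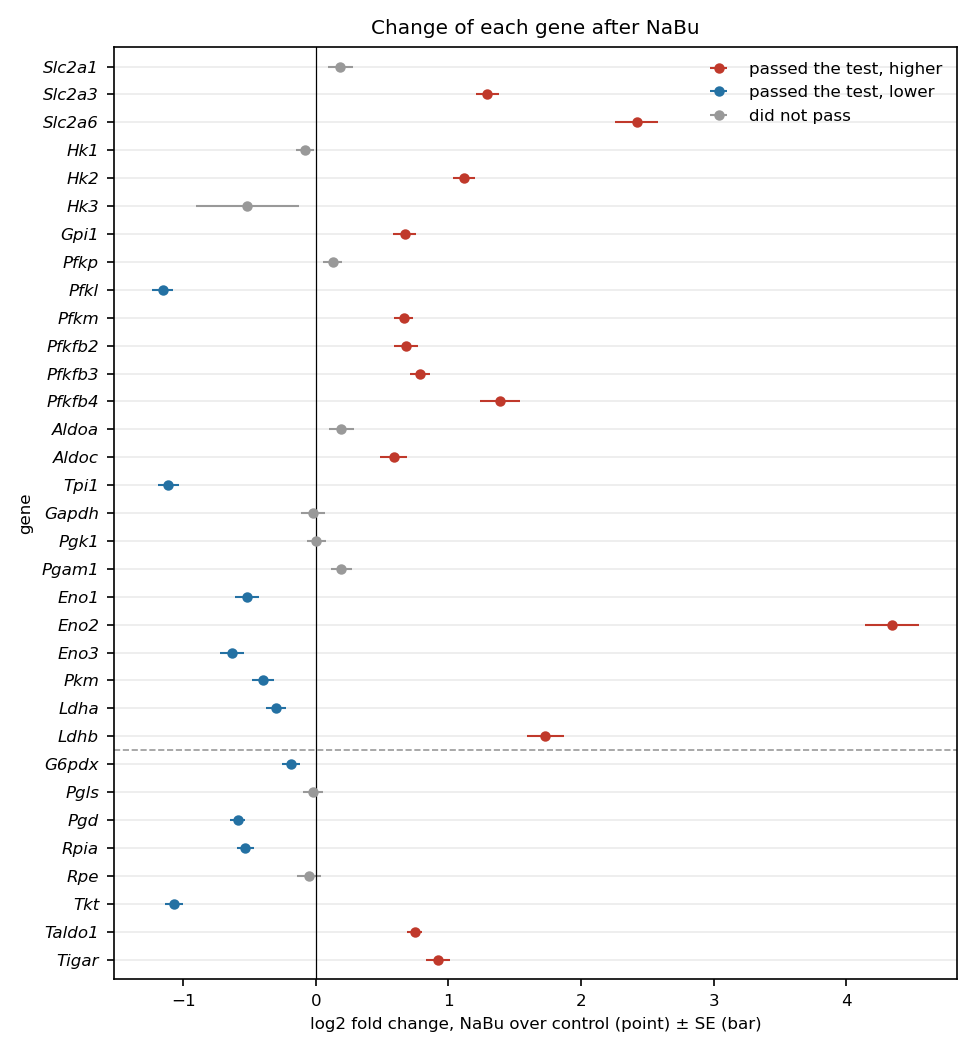
Log2 fold change of NaBu over control for each of the 33 genes, points for the estimate and bars for its SE, from the edgeR fit across all genes. Of the 33 genes, 13 passed the test as higher and 10 as lower, and *Eno2* stands farthest out at 4.34.

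In the oxidative arm of the pentose phosphate pathway the dehydrogenases were lower. *Pgd* (gene 110208, chromosome 4, 149149991 to 149166705), encoding 6-phosphogluconate dehydrogenase, had 60.3 and 58.8 FPKM in NaBu, against 83.5 and 84.0 FPKM in control. Replicates were close and the groups far apart (log2 fold change -0.59 ± 0.06, edgeR adjusted p = 6.51e-06). *G6pdx*, encoding glucose-6-phosphate dehydrogenase, which controls entry into the branch, had 30.2 and 28.6 FPKM in NaBu, against 30.0 and 32.7 FPKM in control. Its FPKM values overlapped, and on the TMM scale it fell only slightly (log2 fold change -0.19 ± 0.07, edgeR adjusted p = 0.0285). That call was lost in 11 of the 16 alternatives, among them library totals (-0.09), without control 2 (-0.13), without NaBu 1 (-0.23) and without NaBu 2 (-0.15). *Pgls*, encoding the lactonase between them, had 87.2 and 94.9 FPKM in NaBu, against 91.9 and 81.2 FPKM in control, and did not pass (log2 fold change -0.02 ± 0.08). Its transcript has a GC content of 65.7%, and with the trend of the data on GC content removed it was called lower, with a log2 fold change of -0.49.

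In the non-oxidative arm the sugar-transferring enzymes went opposite ways. *Tkt* (gene 21881, chromosome 14, 30549131 to 30574724), encoding transketolase, had 109 and 113 FPKM in NaBu, against 226 and 210.1 FPKM in control. It fell 2.10-fold with no overlap (log2 fold change -1.07 ± 0.07, edgeR adjusted p = 2.08e-07). *Taldo1* (gene 21351, chromosome 7, 141392160 to 141402976), encoding transaldolase, had 145 and 141 FPKM in NaBu, against 79.5 and 79.9 FPKM in control. It rose 1.68-fold with close replicates (log2 fold change 0.75 ± 0.06, edgeR adjusted p = 1.11e-06). *Taldo1* was above *Tkt* in both NaBu libraries and below it in both controls, on the FPKM scale of levels. *Rpia*, encoding the isomerase that forms ribose 5-phosphate, had 28.7 and 28.2 FPKM in NaBu, against 38.0 and 38.8 FPKM in control, and fell with a log2 fold change of -0.53 ± 0.07. *Rpe*, encoding the epimerase, had 16.5 and 15.8 FPKM in NaBu, against 14.4 and 16.9 FPKM in control. Its groups overlapped and it did not pass (log2 fold change -0.05 ± 0.09).

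Unequal changes among isozymes altered the make-up of several steps. Shares were taken of the summed FPKM of the listed isozymes in each library, a description with no test. *Slc2a3* made up 59.7% and 59.5% of the transporter sum in NaBu, against 40.8% and 41.7% in control, and replaced *Slc2a1* as the larger part. *Hk2* made up 44.3% and 44.8% of the hexokinase sum in NaBu, against 26.7% and 25.1% in control. The phosphofructokinase share of *Pfkl* was 14.3% and 14.6% in NaBu, against 30.2% and 28.8% in control, while that of *Pfkp* was 79.7% and 79.4% in NaBu, against 66.5% and 67.5% in control. In each of these 3 steps the 2 groups lay many times farther apart than the replicates. *Eno1* kept 99.2% and 99.3% of the enolase sum in NaBu, against 99.5% and 99.4% in control, and *Ldha* 99.40% and 99.44% of the lactate dehydrogenase sum in NaBu, against 99.87% and 99.85% in control, so *Eno2* and *Ldhb* stayed minor forms. The share of *Pfkfb3* depended on which genes were summed. Among *Pfkfb2*, *Pfkfb3* and *Pfkfb4* it was 84.3% and 83.2% in NaBu, against 86.0% and 85.9% in control, and with *Pfkfb1* in the sum it was 83.3% and 81.9% in NaBu, against 77.2% and 76.5% in control.

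**Figure D3:**
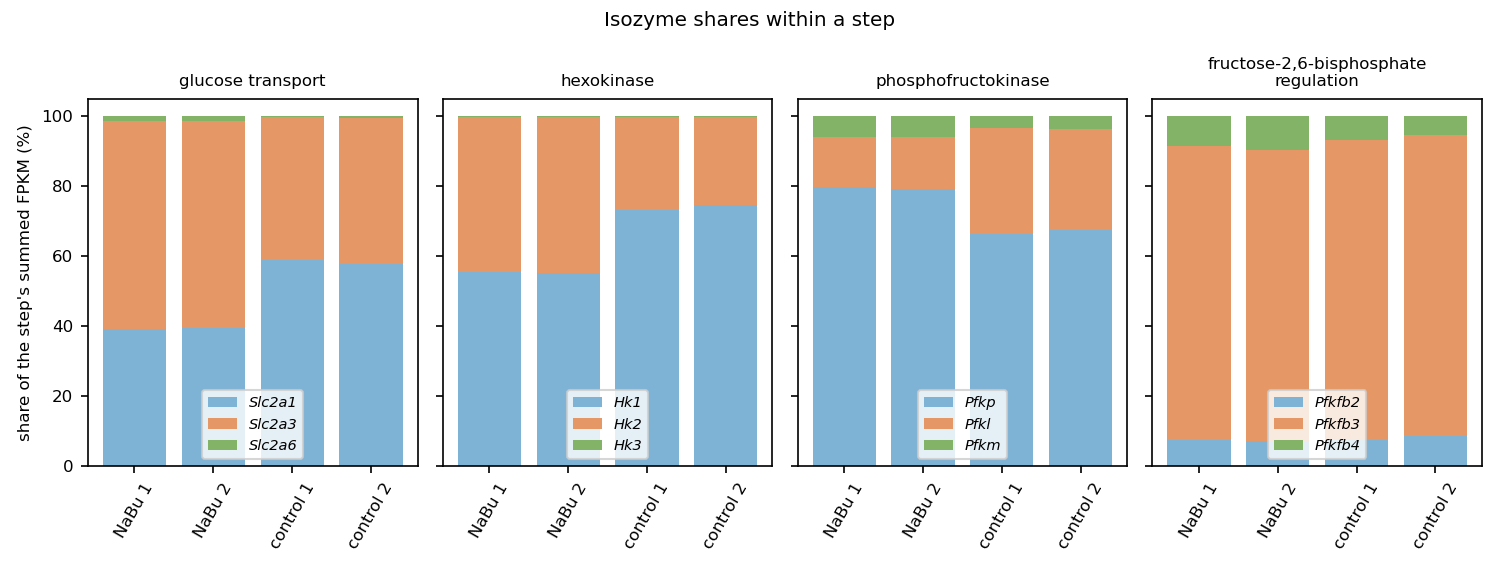
Share of each isozyme in the summed FPKM of its step (%), for NaBu 1, NaBu 2, control 1 and control 2, in glucose transport, hexokinase, phosphofructokinase and the 3 listed Pfkfb genes, without *Pfkfb1*. *Slc2a3* takes 59.7% and 59.5% in NaBu, against 40.8% and 41.7% in control, and *Pfkl* 14.3% and 14.6%, against 30.2% and 28.8%.

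Summed over a step, the transporters had 532 and 529 FPKM in NaBu, against 325 and 261 FPKM in control, and the hexokinases 194 and 194 FPKM in NaBu, against 153 and 135 FPKM in control. The phosphofructokinase sum was 292 and 291 FPKM in NaBu, against 315 and 278 FPKM in control, so the NaBu sums lay between the controls although the isozymes had changed. Over the 25 glycolysis genes the summed level was 17983 and 17979.5 FPKM in NaBu, between the 19140.0 FPKM of control 1 and the 16376 FPKM of control 2. That sum is set mainly by *Gapdh*, *Eno1*, *Aldoa*, *Pkm*, *Ldha* and *Pgk1*, the 6 highest genes of the list in both groups. The order within these 6 differed, with *Aldoa* second at 2659 ± 8.72 FPKM and *Eno1* next at 1985 ± 34.7 FPKM in NaBu, whereas in control *Eno1* was second at 2660 ± 329 FPKM and *Aldoa* next at 2184 ± 289 FPKM (SD, n = 2 each). In control, the ranges of *Pkm* and *Ldha* overlapped across libraries. Within each library *Pkm* was above *Ldha*, at 1803 against 1712 FPKM in control 1 and closely, at 1546 against 1534 FPKM, in control 2. The 8 pentose phosphate genes summed to 487 and 490.3 FPKM in NaBu, against 568 and 549 FPKM in control.

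The 2 controls differed from each other in glycolysis transcripts. The log2 ratio of control 1 over control 2 was above 0 for 21 of 25 glycolysis genes, with a median of 0.22, against a median of 0.002 and a range from the 5th to the 95th percentile of -0.30 to 0.38 over all genes tested. Among the 19 glycolysis genes with a mean of 5 FPKM or more in control it was above 0 in each, from 0.03 for *Pfkm* to 0.37 for *Aldoc*. Pentose phosphate genes showed no such shift, with 2 of 8 above 0 and a median of -0.02. NaBu 1 and NaBu 2 lay close together in both branches, with medians of 0.007 for glycolysis and 0.03 for the pentose phosphate genes. Without control 1, *Slc2a1*, *Pfkp*, *Aldoa* and *Pgam1* were called in addition, which gave 17 genes higher and 10 lower, and 33.2% and 33.3% of all genes tested were called in those directions. Without control 2, *Hk1* and *Gapdh* were called lower and *G6pdx* was not, which gave 13 higher and 11 lower, against 32% and 32.1% of all genes. The cause of the difference between the controls was not tested.

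The counts of genes called were taken under further settings. Without NaBu 1, 13 genes were higher and 8 lower, where 27.5% and 26.6% of all genes were called in those directions, and without NaBu 2 also 13 and 8, where 27.6% and 26.5% were. With limma on log2(FPKM + 1), 16 were higher and 8 lower, against 36.9% and 30.4% of all genes, and without its filter on low values 13 and 6, against 26.3% and 18.7%. With the trend on GC content removed, 17 were higher and 11 lower, against 37.2% and 35.7%, and with the replicate number as a block 15 and 10, against 34.5% and 33.9%.

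**Figure D4:**
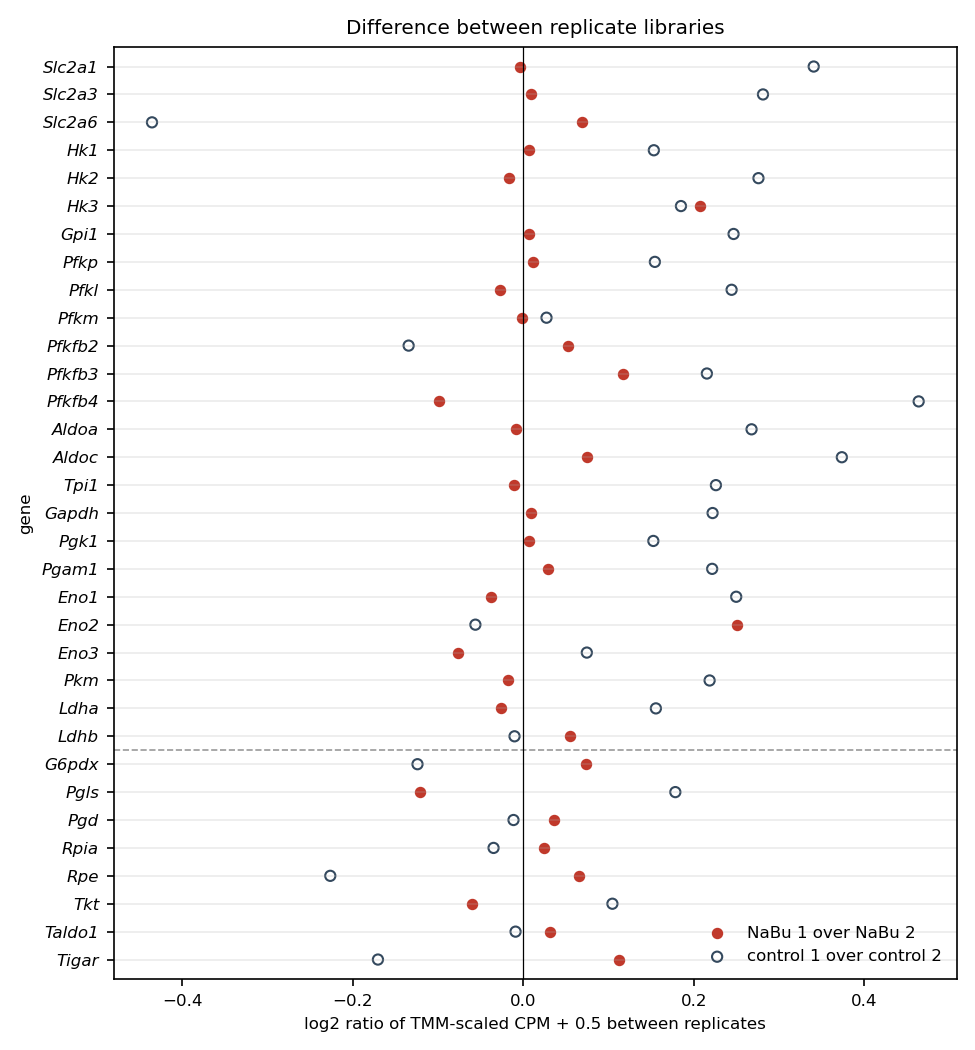
Log2 ratio between replicate libraries for each gene, NaBu 1 over NaBu 2 (filled) and control 1 over control 2 (open), from TMM-scaled CPM with 0.5 added. Most open points above the dashed line, which are the glycolysis genes, sit to the right of 0, with a median of 0.22.

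Other genes of these pathways gave a similar balance. Of 42 further transporter, glycolysis and pentose phosphate genes, 38 were in the files and 31 tested, of which 12 rose and 9 fell. Their median log2 fold change was 0.10. The share called, 67.7%, again lay near the 68.6% of all genes. *Slc2a8*, encoding the intracellular transporter GLUT8, had 18.5 and 18.1 FPKM in NaBu, against 6.53 and 6.56 FPKM in control, and rose 2.61-fold. *Bsg*, encoding basigin, which carries lactate transporters to the surface, had 481 and 490.0 FPKM in NaBu, against 282 and 239 FPKM in control, and rose 1.73-fold. The lactate transporter genes themselves did not pass, *Slc16a3* having 189 and 197 FPKM in NaBu, against 211 and 172 FPKM in control, and *Slc16a1* 33.5 and 34.9 FPKM in NaBu, against 28.3 and 31.3 FPKM in control. *Galm*, encoding the mutarotase of hexoses, rose 3.67-fold and *Pgam2*, the muscle phosphoglycerate mutase, 3.62-fold, both to between 5 and 7 FPKM in NaBu.

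Side branches of the pathway held genes called in both directions. The phosphoglucomutase family genes that the deposited data list as *Pgm1* and *Pgm2* went opposite ways. They are identified here by gene number, not by symbol alone. *Pgm1* (gene 66681) had 21.4 and 20.1 FPKM in NaBu, against 12.3 and 14.1 FPKM in control, and rose with a log2 fold change of 0.55 ± 0.09. *Pgm2* (gene 72157) had 61.8 and 65.1 FPKM in NaBu, against 103.7 and 92.2 FPKM in control, and fell with a log2 fold change of -0.72 ± 0.07. *Gpd2* and *Gpd1l*, of the glycerol 3-phosphate route, rose by 0.45 and 0.55 on the log2 scale, and *Bpgm* and *Minpp1*, which make and remove 2,3-bisphosphoglycerate, by 0.62 and 0.68. *Dera*, a deoxyribose-phosphate aldolase gene, fell with a log2 fold change of -0.69, and *Prps1* and *Prps2*, whose products make phosphoribosyl pyrophosphate for nucleotide synthesis, with -0.42 and -0.24. The sugar kinase genes *Rbks* and *Shpk* did not pass, with 0.30 and 0.24. *H6pd*, the oxidative-arm enzyme of the endoplasmic reticulum, fell by 0.19 and *Pgp*, a phosphatase that clears side products of glycolysis, by 0.48. *Eno1b*, a retrotransposed copy of *Eno1*, had 0.00 and 0.33 FPKM in NaBu, against 1.12 and 0.02 FPKM in control, and did not pass.

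Of 15 known regulators of these genes, all tested, 9 were higher and 1 was lower (34.5% and 34.1% of all genes tested). The median log2 fold change was 0.63, against 0.005 over all genes. The list was chosen with earlier results of these data known and mixes activators with factors that restrain glucose use. Its counts and median are therefore not a result about the pathway. *Hif1a*, encoding the oxygen-sensitive subunit of the hypoxia-inducible factor, had 194 and 189.8 FPKM in NaBu, against 92.6 and 108 FPKM in control, and rose 1.79-fold, while its partner *Arnt* did not pass, with 12.5 and 12.5 FPKM in NaBu, against 11.3 and 10.9 FPKM in control. *Myc*, a driver of glycolytic genes in activated T cells, had 182 and 179 FPKM in NaBu, against 105 and 93.3 FPKM in control, and rose 1.71-fold. The glucose-sensing factor genes *Mlxip* and *Mlxipl* rose, *Mlxip* with 24.6 and 25.6 FPKM in NaBu, against 17.7 and 15.5 FPKM in control. *Mlxipl*, named outside the rule because of its size, had 2.90 and 3.08 FPKM in NaBu, against 0.07 and 0.05 FPKM in control. *Txnip*, whose product restrains glucose uptake by removing transporters from the surface, had 780 and 702 FPKM in NaBu, against 209 and 196 FPKM in control, and rose 3.42-fold. *Arrdc4*, which encodes a related arrestin-domain protein, had 6.08 and 4.94 FPKM in NaBu, against 1.84 and 2.25 FPKM in control.

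Among the remaining regulators, *Foxo1*, a factor of quiescent and memory T cells, had 64.3 and 63.8 FPKM in NaBu, against 21.0 and 19.5 FPKM in control, and rose 2.95-fold. *Trp53*, encoding p53, a repressor of glucose transporter genes, had 47.3 and 51.4 FPKM in NaBu, against 143 and 139.9 FPKM in control, and was 3.07-fold lower. *Nfe2l2*, encoding NRF2, an activator of pentose phosphate genes in other tissues, rose with a log2 fold change of 0.71 ± 0.08, and *Epas1*, encoding a second hypoxia-inducible subunit, with 0.63 ± 0.09. *Foxk1*, *Foxk2*, *Esrra* and *Bhlhe40* did not pass, with log2 fold changes of 0.02, 0.14, 0.02 and 0.02. No link between these regulators and the changes of single enzymes was tested.

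**Figure D5:**
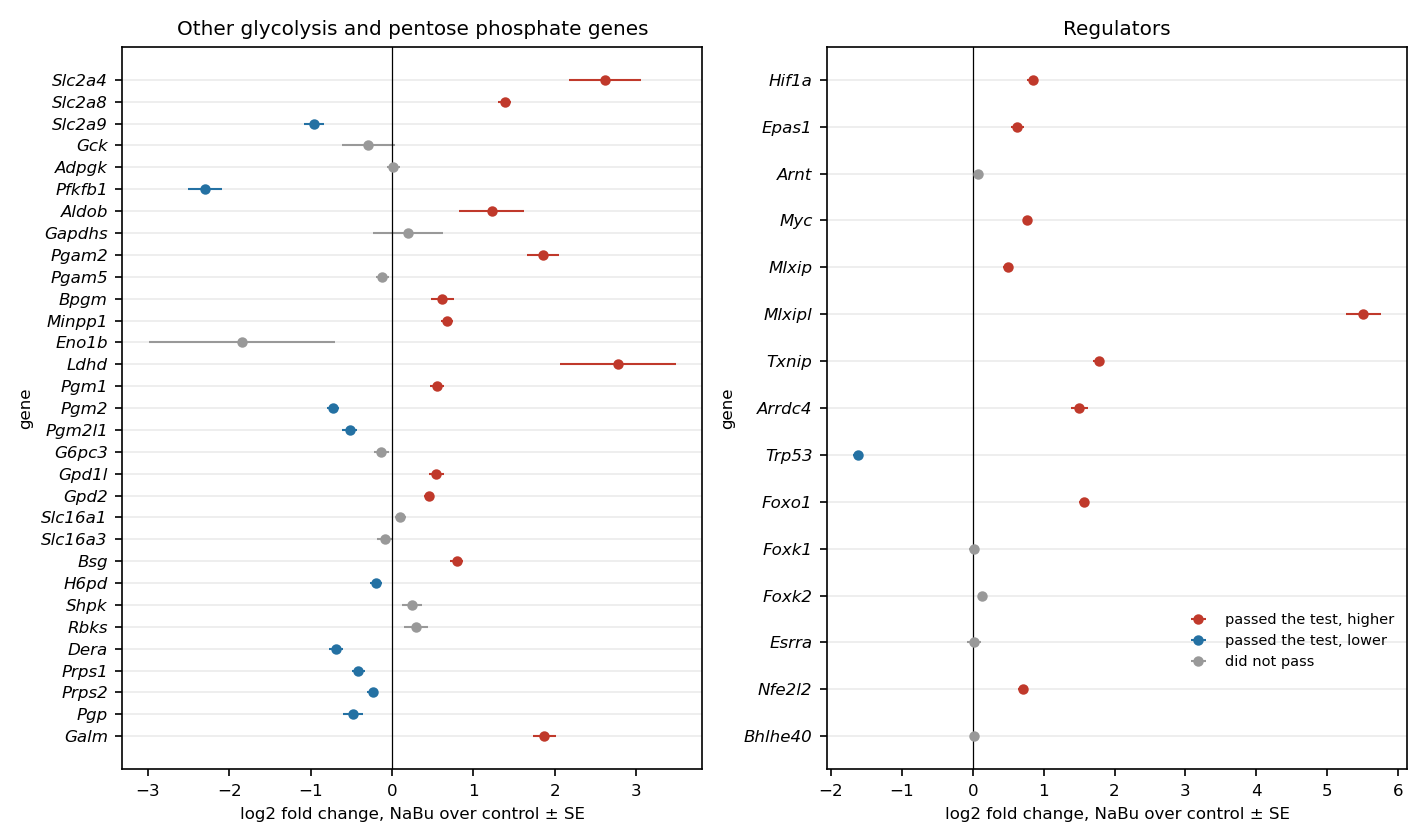
Log2 fold change of NaBu over control with SE bars for the 31 tested further pathway genes (left) and the 15 regulators (right). On the left 12 points are called higher and 9 lower, and on the right 9 are higher with *Trp53* the single lower one.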

How the data were processed

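RNA-seq of 2 NaBu and 2 control libraries was grouped by the sample titles. The submitters' processing notes name Bowtie2, RSEM and mm10. Tool versions, annotation release and strand setting: not given in the sources used here. The deposited expected counts are the authors' estimates per gene, not normalized, and were rounded to whole numbers. The deposited FPKM values are scaled to transcript length and library total, per the file headers, and give the levels in the text. RSEM divides reads that match several genes. The authors' counts were fractional (by over 0.001) in at least 1 library for 11 of the 33 genes (33.3%, against 33.5% of all genes), namely *Gpi1*, *Pfkp*, *Pfkl*, *Pfkfb2*, *Pfkfb3*, *Aldoa*, *Gapdh*, *Eno1*, *Eno2*, *Ldha* and *Rpe*, which are therefore less certain. A gene missing from a library's table was set to 0.

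The rounded counts entered edgeR 4.0.16 under R 4.3.3 (filterByExpr, 12943 genes; TMM factors of 1.035 and 1.0335 for NaBu 1 and NaBu 2, 0.968 and 0.9658 for control 1 and control 2; quasi-likelihood F test, no covariates; Benjamini-Hochberg over all genes, called at 0.05). The test was checked on simulated data. TMM lowers NaBu over control relative to FPKM, and the median log2 fold change of all genes was 0.005 with TMM and 0.10 on library totals. The SE was derived as the size of the log2 fold change over the root of F. With 2 libraries per group the smallest two-sided p of an exact permutation test is 0.333, so none was run.

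The genes, lists and tests were chosen with earlier results of these data known. Library values are given for called genes with a mean of 5 FPKM or more in the higher group and for the highest gene of each step. Further genes of the 33 were added so that each is accounted for, and further pathway genes and regulators follow the same minimum. Genes from those lists that did not pass or were lower than that (*Slc16a1*, *Slc16a3*, *Eno1b*, *Pfkfb1*, *Rbks*, *Shpk*, *Mlxipl* and 5 regulators) and all marker genes were named after their values were seen. Coordinates are RefSeq's on GRCm38.p6, the assembly of mm10, matched by gene identifier for 33 of 33 genes. Mitochondrially encoded genes were not analysed here. Alternatives were DESeq2 1.42.0, its size factors, library totals, limma 3.58.1 on log2(FPKM + 1) and log2(FPKM + 0.1), limma-voom, other filters on low values, a null of 1.5-fold, a block for the replicate number, and omission of each library. Removal of the GC trend, and other isozymes in the sums behind the shares, were added after seeing the data.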

Additional observations from a re-analysis of the deposited data

How the results depend on the processing

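How often a call held, was lost or was gained was not counted over all genes. The numbers given for that here do not set the 33 genes apart. Of 23 genes called, 12 passed in the same direction under each of the 16 alternatives that tested them, and none changed direction. A further 4 (*Eno1*, *Pkm*, *Ldha* and *G6pdx*) lost the call under an alternative other than the 1.5-fold null. The number of genes called lower was 3 with that null and 6 with limma on log2(FPKM + 1) without a filter, against 10. Over all genes the 1.5-fold null left 2214 higher and 1565 lower. With limma on log2(FPKM + 1) and its filter, 16 of the 33 genes were higher and 8 lower. Without each library in turn, 13 to 17 were higher and 8 to 11 lower; the lone library left in a group is then assumed to vary like the other group. The replicate numbers gave no sign of pairing (correlation across genes of -0.031 between the deviations of same-numbered libraries), and with the replicate block 15 were higher and 10 lower, *Slc2a1* and *Pgam1* being called in addition.

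Of 10 genes not called, 5 changed sign under some alternative, and 7 were called under at least 1. Neither number was taken over all genes. *Hk1*, called lower without control 2, was 0.0188 on library totals and 0.0192, 0.0194 and 0.0192 with limma on log2(FPKM + 1), on log2(FPKM + 0.1) and on log2(FPKM + 1) unfiltered. *Gapdh* was 0.0778 on library totals, 0.0393 with a minimum of 5 CPM, 0.0786 in each of the 3 limma fits and 0.0919 without control 1; without each library in turn it spanned -0.1324 (called lower, without control 2) to 0.0919. *Pgls* was 0.0759 on library totals, 0.0377 with the 5 CPM minimum, 0.0735, 0.0742 and 0.0735 in the limma fits, 0.0671 without control 1 and 0.0354 without NaBu 1, with -0.1146 without control 2, and -0.4879 (called lower) with the GC trend removed. *Rpe* was 0.0453, 0.0076, and 0.0467, 0.0495 and 0.0467 in those same fits, 0.0607 without control 2 (-0.1659 without control 1) and 0.1315 with the GC trend removed. *Pgk1* was -0.0158 without a filter on low counts, -0.0761 without control 2 and -0.0015 without NaBu 1 (0.0788 without control 1). Across genes, the log2 fold change had a Spearman correlation of 0.166 with transcript GC content, and with that trend removed 17 of the 33 genes were higher and 11 lower.

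Taken on counts in place of FPKM, the NaBu minus control difference in share was 17.6 percentage points for *Slc2a3* (18.4 on FPKM), -19.9 for *Hk1* (-18.6), -1.18 for *Pfkfb3* (-2.21), -0.933 for *Aldoa* (-0.553), -0.347 for *Eno1* (-0.214) and -0.349 for *Ldha* (-0.441). The cause of these shifts is the isozymes' transcript length, by construction. With other isozymes added to the FPKM sums, *Slc2a3* differed by 17.5 percentage points, and *Pfkfb3* turned to 5.81, the added gene being *Pfkfb1*. Depth limits *Hk3*, with 9 to 16 counts per library. FPKM of *Eno2* and *Slc2a6* in control rest on 13 to 58 counts.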
